A study of Mus musculus with 6 samples.

Results

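The genes described here handle cystine, glutathione and reactive oxygen in the mouse uterus on day 4 of pregnancy. They comprise *Slc7a11*, the transport chain of the cystine importer, with 40 genes of glutathione synthesis, recycling and use, targets of the transcription factor NRF2, and genes of ferroptosis control. All 41 were found among the 56748 genes of the expression tables, each under 1 identifier, and 40 passed the filter on low counts that left 16605 genes for testing. The list was selected on measured values: the high expected counts of *Slc7a11* in the *Gp130* ecKO uteri of this same comparison, with the other genes taken by pathway with earlier results of these data known. The values of *Slc7a11* are therefore given as a description, and no test of it is read. The counts of other genes are set beside those of all genes tested and nothing is read from them.

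The RNA came from the whole uterus of each of 3 control and 3 *Gp130* ecKO females on day 4 of pregnancy (1600 h), and was sequenced after poly(A) selection as single reads of 75 bp. *Gp130* ecKO females carried *Ltf*-iCre and homozygous floxed *Gp130* (*Ltf* iCre/+; *Gp130* flox/flox). Control females are labelled WT, and the methods describe controls as wildtype or as floxed females without iCre, so which of these each control was is not given. All females were sexually mature, were on the C57BL/6 background by the labels (C57BL/6J by the methods) and had mated with a fertile wildtype male. *Ltf*-iCre acts in epithelium that expresses lactoferrin, so the deletion is not driven in the stroma, muscle and vessels that share the RNA, and lactoferrin is also a product of neutrophils. Nothing in the labels ties a replicate number to a litter, day or batch, and p-values measure the spread between these uteri only.

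Glutathione is made from glutamate, cysteine and glycine, and cysteine is commonly the scarce ingredient. Cells take up oxidised cysteine, cystine, in exchange for glutamate through the importer formed by the *Slc7a11* and *Slc3a2* chains, or make cysteine from methionine through *Cbs* and *Cth*. Glutathione peroxidases and transferases spend glutathione on peroxides and electrophiles, glutathione reductase restores it with NADPH, and failure of the lipid peroxide branch leads to the iron-dependent cell death called ferroptosis. NRF2, the product of *Nfe2l2*, is kept low by KEAP1 and switches on many of these genes through antioxidant response elements, while *Slc7a11* is also known as a target of ATF4, a factor of the amino acid and stress responses that binds C/EBP-ATF elements.

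Promoter windows from RefSeq, 250 bases before to 50 bases after each annotated start on build GRCm38.p6, were matched by symbol for 34 of the 41 genes, and each window had 1 exact match in GRCm39, whose coordinates are given. No window was matched for *Gclc*, *Cth*, *Gsr*, *Gsta4*, *Hmox1*, *Prdx6* and *Sod3*. Each window was searched on both strands for TGACNNNGC, a form of the core of the antioxidant response element, and for TGATGNAA, a core of the C/EBP-ATF element. The 250 bases before the start are shown for *Slc7a11* and *Chac1*, the only members whose window held the C/EBP-ATF letters, and for *Gclm* and *G6pdx*, which held the antioxidant response letters and had overlapping and separate groups. Capitals mark the matches, and sequences run 5′ to 3′ on the strand of the gene. *Slc7a11* is shown for chr3:50398063-50398312 (minus strand), *Chac1* for chr2:119181473-119181722 (plus strand), *Gclm* for chr3:122038956-122039205 (plus strand) and *G6pdx* for chrX:73472487-73472736 (minus strand).
Slc7a11: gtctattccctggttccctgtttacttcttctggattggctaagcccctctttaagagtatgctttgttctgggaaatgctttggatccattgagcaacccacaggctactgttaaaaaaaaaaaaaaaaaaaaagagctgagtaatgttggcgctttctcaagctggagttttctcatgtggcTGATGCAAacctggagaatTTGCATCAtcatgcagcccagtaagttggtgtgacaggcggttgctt
Chac1: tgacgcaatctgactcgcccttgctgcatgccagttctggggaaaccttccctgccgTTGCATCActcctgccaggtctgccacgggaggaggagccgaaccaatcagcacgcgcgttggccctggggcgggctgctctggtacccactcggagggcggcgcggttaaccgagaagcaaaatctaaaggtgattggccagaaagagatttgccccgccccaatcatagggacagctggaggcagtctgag
Gclm: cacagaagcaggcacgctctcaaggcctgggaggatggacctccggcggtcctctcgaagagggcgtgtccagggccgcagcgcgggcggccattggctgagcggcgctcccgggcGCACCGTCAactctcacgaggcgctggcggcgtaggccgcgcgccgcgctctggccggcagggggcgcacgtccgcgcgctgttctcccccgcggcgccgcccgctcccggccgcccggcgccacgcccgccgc
G6pdx: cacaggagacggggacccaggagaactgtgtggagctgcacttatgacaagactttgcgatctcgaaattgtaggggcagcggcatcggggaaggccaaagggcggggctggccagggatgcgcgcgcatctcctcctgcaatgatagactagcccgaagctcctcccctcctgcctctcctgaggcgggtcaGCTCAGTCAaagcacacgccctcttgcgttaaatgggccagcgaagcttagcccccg

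The *Slc7a11* window held TGATGNAA at 66 bases before the start and again, on the other strand, at 47 bases before it. The *Chac1* window held these letters once, at 193 bases before the start. In *Gclm* and *G6pdx* the antioxidant response letters began 134 and 57 bases before the start, and in *Srxn1* they began at base 29 of the transcript. Of all 27025 genes with a window, 14.0% held TGACNNNGC and 4.51% held TGATGNAA in at least 1 window. Among the 34 members the shares were 29.4% (10 genes) and 5.88% (2 genes). The other members with TGACNNNGC were *Gsta3*, *Nfe2l2*, *Prdx1*, *Ggct*, *Mgst1*, *Txnrd1* and *Sod1*. A match says only that these letters are in the window.

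Values are normalised read counts, as CPM, the count of a gene relative to the library size scaled by edgeR's TMM method, and are listed in the order replicate 1, 2 and 3. Total expected counts per uterus ranged from 13960748 in control 3 to 25906443 in control 2. The targeted gene *Il6st* (*Gp130*) was at 631, 678 and 452 CPM in control uteri and at 388, 349.8 and 362 CPM in *Gp130* ecKO uteri, so the groups did not overlap (log2 fold change −0.68, standard error 0.21, with an adjusted p of 0.120 in the quasi-likelihood test of edgeR and of 0.0346 in DESeq2). In a multidimensional scaling of the 6 uteri, control 2 lay at 0.03 on the first dimension, between controls 1 and 3 at 2.09 and 2.08 and the *Gp130* ecKO uteri at −1.47 to −1.32. Summed CPM of 8 epithelial markers was 2446 to 4054 in control and 5601 to 7313 in *Gp130* ecKO uteri, with 5 of the 8 higher without overlap. Summed CPM of 6 stromal markers was 2429 to 2844 in control and 1203 to 1732 in *Gp130* ecKO uteri, with 5 of the 6 lower without overlap. Endothelial markers summed to 307 to 744 against 169 to 305 CPM, with 3 of 4 lower without overlap, and macrophage markers to 126 to 191 against 68.6 to 155 CPM, with overlap. Neutrophil markers, all near the limit of detection, summed to 5.0 to 6.35 against 0.859 to 4.15 CPM. Of the 5, 3 were lower without overlap, while *Ly6g* overlapped with the higher mean in *Gp130* ecKO uteri (0.808 and 1.78 CPM). Gland, smooth muscle and red blood cell sums overlapped. Oviduct markers (*Ovgp1* and *Foxj1*) summed to 48.3 to 85.9 CPM in control and 556 to 1194 CPM in *Gp130* ecKO uteri. Nearly all of these sums was *Ovgp1* (means 61.3 and 787 CPM), while *Foxj1* overlapped (means 0.395 and 1.82 CPM). Adipocyte sums, mostly *Fabp4* (means 2.87 and 0.821 CPM), were 2.91 to 4.47 against 0.271 to 1.38 CPM. Ovary sums were 7.16 to 23.6 against 3.65 to 6.33 CPM, and no marker of any list was at 0 in all 6 uteri. In whole uterus RNA a change in the number of cells of a type cannot be told apart from a change in RNA per cell, and the part of these marker shifts in the results below was not tested.

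*Slc7a11* (ENSMUSG00000027737), on the minus strand of chromosome 3 of GRCm39 from 49846975 to 50398070, was at 7.44, 15.7 and 9.0 CPM in control uteri and at 97.2, 131 and 269 CPM in *Gp130* ecKO uteri. The lowest *Gp130* ecKO uterus was 6.18-fold above the highest control uterus, control 2. The mean was 10.7 ± 4.41 CPM in control and 166 ± 90.7 CPM in *Gp130* ecKO uteri (SD, n = 3 each), a ratio of 15.4. *Gp130* ecKO 3 was 2.76-fold above *Gp130* ecKO 1, and control 2 was 2.11-fold above control 1. The fitted log2 fold change was 3.95 with a standard error (SE) of 0.48. It ranked 34 from the top among the fitted changes of the 16605 genes. No stretch of 75 bases of its annotated transcripts occurred in another gene on the same strand, and 0.538% of them occurred on the opposite strand of other genes.

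*Slc3a2*, the heavy chain that carries *Slc7a11* to the cell surface and also partners other amino acid transporters, was at 139, 131 and 118 CPM in control and 121, 124 and 203 CPM in *Gp130* ecKO uteri. The groups overlapped, and *Gp130* ecKO 3 was the highest of the 6 uteri. The log2 fold change was 0.21 (SE 0.23, adjusted p = 0.598). Per length, in the TPM of RSEM, *Slc7a11* was at 0.00906, 0.0215 and 0.0215 of the *Slc3a2* level in control uteri and at 0.151, 0.213 and 0.232 of it in *Gp130* ecKO uteri. Mean TPM of *Slc7a11* went from 1.83 to 25.7, beside 107 and 126 for *Slc3a2*, so *Slc7a11* stayed the less abundant chain in every uterus.

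**Figure D1:**
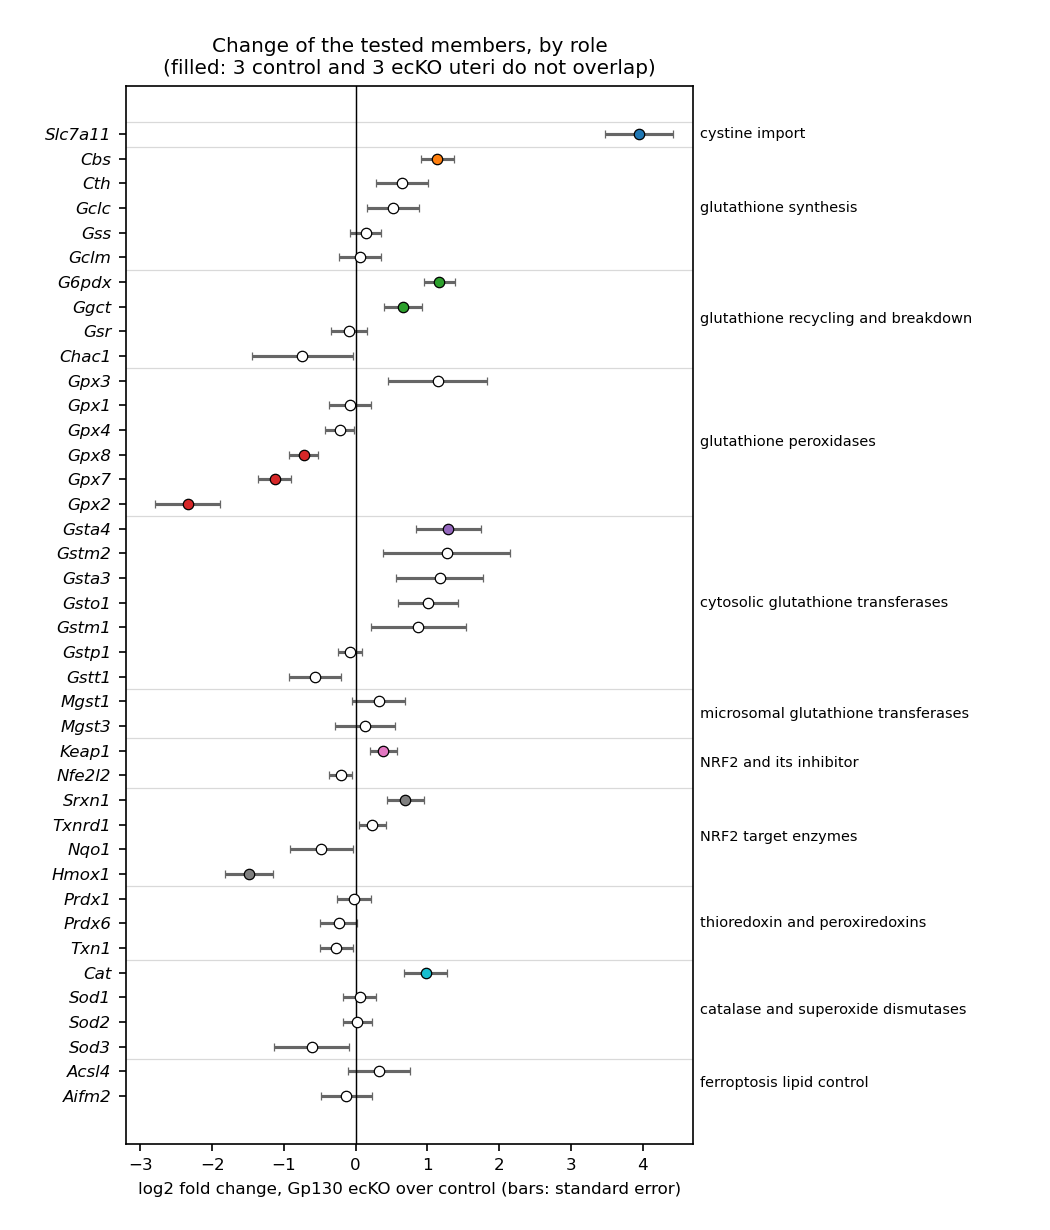
Log2 fold change of the 40 tested genes (*Gp130* ecKO over control), by role, with standard errors as bars and filled points where the 3 uteri of each group do not overlap. *Slc7a11* sits at 3.95, and the other genes lie between −2.34 (*Gpx2*) and 1.29 (*Gsta4*).

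The other 39 tested genes did not share the position of *Slc7a11*. Their median log2 fold change was 0.06, beside −0.05 for all genes tested, and they ranged from −2.34 to 1.29. The change of *Slc7a11* was larger by 3.89 than that median and by 2.65 than the next highest member, on the log2 scale. None of the 39 was called by the quasi-likelihood test at an FDR under 0.05 and more than 2-fold, where 0.157% of all genes tested were called (0.126% higher and 0.0301% lower), while the exact test of edgeR, its likelihood ratio test and DESeq2 called 5, 5 and 7 of them. Those tests called 7.54%, 7.93% and 9.31% of all genes tested. Without control 2 the quasi-likelihood test called 5 of the 39, beside 5.23% of all genes tested in that fit. Of the 39, 7 had a higher and 4 a lower value at an unadjusted p under 0.05 (28.2%), beside 25% of all genes tested (12.1% higher and 12.9% lower). The groups did not overlap in 11 of the 39 (28.2%, 7 higher and 4 lower), beside 31.3% of all genes tested (15.7% higher and 15.6% lower). In these 11 the control nearest to the *Gp130* ecKO uteri was control 2 in 9 (81.8%), and over the 5194 separate genes of the whole table it was control 2 in 61.55%.

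Uterus by uterus the same was seen on the scale of log2(CPM + 0.5) relative to the control mean. *Slc7a11* stood at 3.19, 3.62 and 4.65 in *Gp130* ecKO 1, 2 and 3, while the median of the other 39 stood at 0.08, −0.10 and 0.24. In controls 1, 2 and 3 *Slc7a11* stood at −0.43, 0.60 and −0.17 and the median of the others at 0.15, 0.15 and −0.33. Of the other 39, 20, 18 and 31 were above their control mean in *Gp130* ecKO 1, 2 and 3, and 27, 25 and 8 in controls 1, 2 and 3, so these numbers did not separate the groups.

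**Figure D2:**
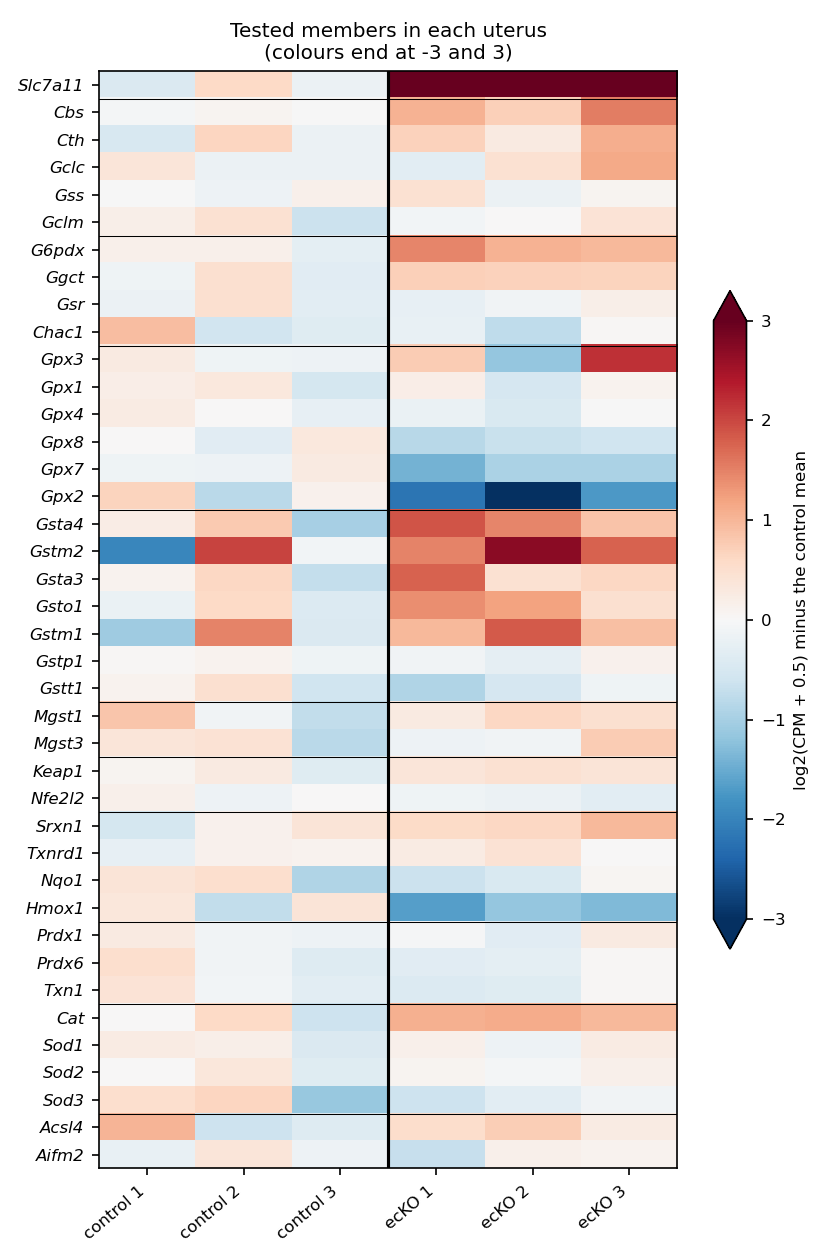
Log2(CPM + 0.5) of each tested gene in each of the 6 uteri minus its control mean, by role, with colours ending at −3 and 3. The *Slc7a11* row is beyond 3 in all 3 *Gp130* ecKO uteri (3.19 to 4.65), and outside it only *Gpx2* in *Gp130* ecKO 2 (−3.03) passes the end of the scale.

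Among the 5 genes of glutathione synthesis, fitted changes were above 0 for all (4 with upper quartile factors, where *Gclm* was at −0.0027) with a median of 0.52, and only *Cbs* had separate groups, beside 47.1% of all genes tested with a change above 0 and 31.3% with separate groups. *Cbs* (ENSMUSG00000024039, chromosome 17 from 31827868 to 31856646), which condenses homocysteine with serine on the way to cysteine, was at 129, 143 and 133 CPM in control and 278, 221 and 389.8 CPM in *Gp130* ecKO uteri. All 3 *Gp130* ecKO uteri were above the controls, which lay within a narrow range. The log2 fold change was 1.14 (SE 0.23, adjusted p = 0.0711), and *Cbs* passed an FDR of 0.05 with the exact test of edgeR, its likelihood ratio test and DESeq2.

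*Cth*, which releases cysteine in the next step, was at 9.95, 22.4 and 12.5 CPM in control and 22.9, 17.0 and 30.7 CPM in *Gp130* ecKO uteri. Control 2 was nearly as high as *Gp130* ecKO 1 and above *Gp130* ecKO 2, and the groups overlapped (log2 fold change 0.65, adjusted p = 0.297). *Gclc*, the catalytic subunit of glutamate-cysteine ligase, which sets the rate of glutathione synthesis, was at 79.7, 54.0 and 54.2 CPM in control and 49.6, 84.6 and 136 CPM in *Gp130* ecKO uteri. *Gp130* ecKO 1 was the lowest of the 6 uteri and *Gp130* ecKO 3 the highest. The log2 fold change of *Gclc* was 0.52 (adjusted p = 0.391), and 0.13 to 0.82 with each uterus left out. *Gclm*, its modifier subunit and a classical NRF2 target, was at 78.1, 93.9 and 43.9 CPM in control and 64.5, 68.6 and 91.5 CPM in *Gp130* ecKO uteri. Its groups overlapped throughout, with a log2 fold change of 0.06, which was −0.20 without control 3. *Gss*, which adds glycine, was at 31.0, 28.0 and 34.9 CPM in control and 42.8, 27.6 and 32.9 CPM in *Gp130* ecKO uteri (log2 fold change 0.14, adjusted p = 0.711), again with overlap.

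Among the 4 genes of glutathione recycling and breakdown, *G6pdx* and *Ggct* were higher in every *Gp130* ecKO uterus. Of all genes tested, 15.7% were higher without overlap. *G6pdx* (ENSMUSG00000031400, chromosome X from 73449857 to 73472819) encodes glucose-6-phosphate dehydrogenase, the entry of the pentose phosphate pathway that supplies NADPH to glutathione reductase. It was at 136, 135 and 98.7 CPM in control and 338, 251 and 239 CPM in *Gp130* ecKO uteri. The groups were clearly apart (log2 fold change 1.17, SE 0.21, adjusted p = 0.0638), and *G6pdx* passed an FDR of 0.05 with the exact test, the likelihood ratio test, DESeq2 and without control 2. It shared 0.725% of its 75-base stretches with *G6pd2* and 4.51% with the opposite strand of *Ikbkg*.

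*Ggct* (chromosome 6 from 54959246 to 54969942), a gamma-glutamylcyclotransferase that acts on gamma-glutamyl amino acids, was at 11.9, 18.7 and 10.3 CPM in control and 21.9, 21.6 and 21.3 CPM in *Gp130* ecKO uteri. The *Gp130* ecKO values lay almost on each other, and control 2 came nearest to them (log2 fold change 0.66, SE 0.27, adjusted p = 0.181). *Gsr*, glutathione reductase, was at 157, 252 and 144 CPM in control and 149.6, 166 and 204 CPM in *Gp130* ecKO uteri. Its highest value was in control 2, and the log2 fold change was −0.09 (adjusted p = 0.838). *Chac1*, which breaks down glutathione and is a known ATF4 target, was near the limit of detection, at 2.23, 0.463 and 0.600 CPM in control and 0.723, 0.346 and 0.953 CPM in *Gp130* ecKO uteri. Its log2 fold change of −0.74 (SE 0.71) rested on control 1, without which it was 0.39.

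**Figure D3:**
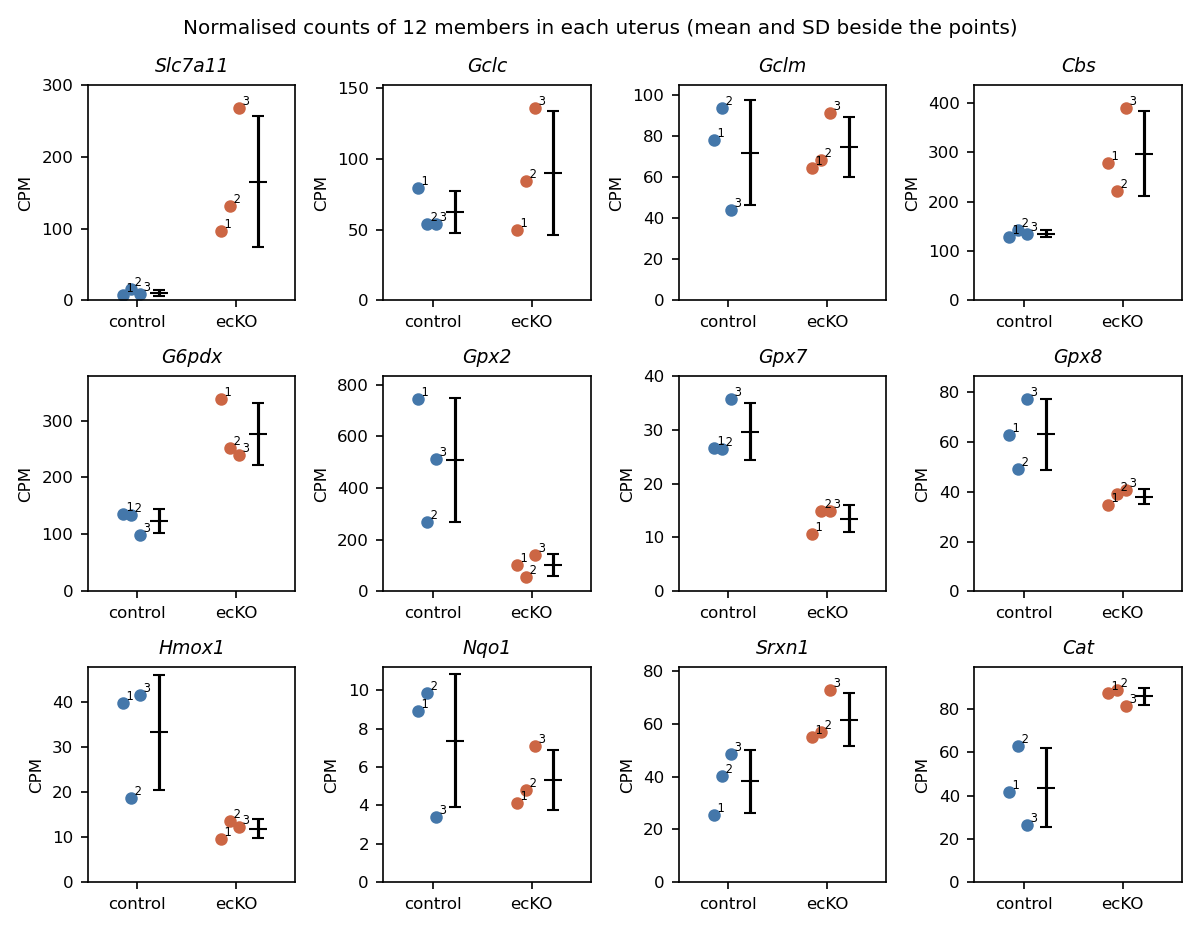
Normalised counts (CPM) of 12 genes in each of the 3 control (blue) and 3 *Gp130* ecKO (red) uteri, with replicate numbers beside the points and the mean and SD as bars. *Slc7a11*, *Cbs*, *G6pdx*, *Srxn1* and *Cat* are higher and *Gpx2*, *Gpx7*, *Gpx8* and *Hmox1* lower in every *Gp130* ecKO uterus, while *Gclc*, *Gclm* and *Nqo1* overlap.

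Of the 6 glutathione peroxidases, *Gpx2*, *Gpx7* and *Gpx8* were lower in every *Gp130* ecKO uterus and the other 3 overlapped, beside 15.6% of all genes tested that were lower without overlap. The median log2 fold change of the 6 was −0.47. *Gpx2* (ENSMUSG00000042808, chromosome 12 from 76839107 to 76842326), the epithelial peroxidase first known from the gut, was at 746, 268 and 513 CPM in control and 102, 56.9 and 142 CPM in *Gp130* ecKO uteri. All *Gp130* ecKO uteri were below the lowest control, control 2, in uteri whose summed epithelial markers were higher. This was the most negative log2 fold change of the members, at −2.34 (SE 0.46, adjusted p = 0.0677). *Gpx2* passed an FDR of 0.05 with the exact test, the likelihood ratio test, DESeq2 and without control 2, and it shared 3.17% of its 75-base stretches with the pseudogene *Gpx2-ps1*.

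*Gpx7* and *Gpx8* encode peroxidases of the endoplasmic reticulum. *Gpx7* (chromosome 4 from 108257583 to 108264158) was at 26.7, 26.5 and 35.7 CPM in control and 10.6, 14.9 and 14.96 CPM in *Gp130* ecKO uteri. The groups were apart, with a log2 fold change of −1.13 (SE 0.24, adjusted p = 0.0737, and under 0.05 with the exact test, the likelihood ratio test and DESeq2). *Gpx8* (chromosome 13 from 113178829 to 113183292) was at 62.6, 49.0 and 77.3 CPM in control and 34.7, 39.0 and 40.5 CPM in *Gp130* ecKO uteri. Its values were lower in all *Gp130* ecKO uteri, with a log2 fold change of −0.73 (SE 0.20, adjusted p = 0.106, and under 0.05 with DESeq2 only). The summed stromal markers, given above, were lower in the same uteri, and their part in *Gpx7* and *Gpx8* was not tested.

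The remaining peroxidases overlapped. *Gpx4*, which reduces lipid hydroperoxides in membranes and is the central brake on ferroptosis, was at 319, 272 and 228 CPM in control and 237, 196 and 270.3 CPM in *Gp130* ecKO uteri (log2 fold change −0.22, SE 0.20, adjusted p = 0.509), with 29.8% of its 75-base stretches shared with pseudogenes. *Gpx1*, the general cytosolic enzyme, was at 562, 604 and 339 CPM in control and 559, 341 and 521 CPM in *Gp130* ecKO uteri (log2 fold change −0.08, adjusted p = 0.875). *Gpx3*, the secreted enzyme, was the most uneven tested member within the *Gp130* ecKO group, at 186, 49.1 and 503 CPM, beside 133, 101 and 99.7 CPM in control uteri. *Gp130* ecKO 2 was the lowest and *Gp130* ecKO 3 the highest of the 6 uteri, and the log2 fold change of 1.14 had an SE of 0.69 (adjusted p = 0.331) and was 0.10 without *Gp130* ecKO 3. For *Gpx1* and *Gpx3*, 60.3% and 73.4% of the 75-base stretches lay on the opposite strand of *Gm57050* and *Tnip1*, and whether counting used strand is not stated.

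The cytosolic glutathione transferases had the highest median of the roles with more than 1 gene, 1.01 on the log2 scale, with 5 of 7 fitted changes above 0, beside 47.1% of all genes tested. *Gsta4* (chromosome 9 from 78090056 to 78117763), which conjugates 4-hydroxynonenal from oxidised lipids, was at 96.7, 143 and 40.9 CPM in control and 306, 230.5 and 151 CPM in *Gp130* ecKO uteri. *Gp130* ecKO 3 was only just above control 2 (log2 fold change 1.29, SE 0.45, adjusted p = 0.146, and under 0.05 with DESeq2 only). *Gsto1* (chromosome 19 from 47842686 to 47853229), an omega class transferase, was at 1437, 2504 and 1252 CPM in control and 4318, 3832 and 2314 CPM in *Gp130* ecKO uteri. Control 2 was above *Gp130* ecKO 3, so the groups overlapped (log2 fold change 1.01, SE 0.42, adjusted p = 0.188, and under 0.05 with DESeq2 only).

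*Gstm1* and *Gstm2*, which lie close together on chromosome 3, varied mostly between uteri of a group. *Gstm2* was at 133, 2103 and 492 CPM in control and 1451, 3367 and 1754 CPM in *Gp130* ecKO uteri. *Gstm1* was at 328, 1950 and 515 CPM in control and 1359, 2466 and 1298 CPM in *Gp130* ecKO uteri. In both genes control 2 lay within the *Gp130* ecKO range, far above controls 1 and 3, and the standard errors were 0.88 and 0.66 beside log2 fold changes of 1.27 and 0.87. Without control 2 the change of *Gstm1* was 2.06 and passed an FDR of 0.05, and that of *Gstm2* was 2.85 and did not. *Gstm1* and *Gstm2* shared 4.75% and 8.35% of their 75-base stretches with relatives and pseudogenes.

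Per length, *Gsto1* was the most abundant member by mean TPM in both groups, at 2276 TPM in control and 4944 TPM in *Gp130* ecKO uteri. *Gstm2* and *Gstm1* followed at 3124 and 2194 TPM in *Gp130* ecKO uteri. In control uteri their TPM was uneven, at 166, 2762 and 691 for *Gstm2* and at 348, 2263 and 709.6 for *Gstm1*, and in controls 1 and 3 *Gpx2* and *Prdx1* were above both. *Slc7a11* was far below them on the same scale even in *Gp130* ecKO uteri, at 25.7 TPM. *Gsta3* was near the limit of detection, at 1.21, 1.93 and 0.467 CPM in control and 4.88, 1.69 and 1.95 CPM in *Gp130* ecKO uteri. *Gstp1*, the pi class enzyme, was flat at 152 to 201 CPM over the 6 uteri (log2 fold change −0.07), with 27.3% of its 75-base stretches shared with *Gstp2* and a pseudogene. *Gstt1* was at 7.73 to 16.9 CPM in control and 6.15 to 10.9 CPM in *Gp130* ecKO uteri (log2 fold change −0.57, adjusted p = 0.357).

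The microsomal transferases overlapped as well. *Mgst1*, which protects membranes of the endoplasmic reticulum and mitochondria, was at 356, 185 and 119.6 CPM in control and 241, 305 and 279 CPM in *Gp130* ecKO uteri (log2 fold change 0.32, adjusted p = 0.612). With each uterus left out, the change of *Mgst1* was 0.020 to 0.87. *Mgst3* ranged from 6.80 to 16.7 CPM in control and from 10.9 to 21.1 CPM in *Gp130* ecKO uteri. *Mgst2* had 2, 2 and 3 counts in control and 0, 3 and 2 counts in *Gp130* ecKO uteri and was the 1 member that did not pass the filter on low counts.

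The RNA of *Nfe2l2*, which encodes NRF2, did not follow that of *Slc7a11*. *Nfe2l2* was at 233, 189.6 and 210.4 CPM in control and 194, 186 and 169 CPM in *Gp130* ecKO uteri, with overlap (log2 fold change −0.21, SE 0.16, adjusted p = 0.434). *Keap1* (chromosome 9 from 21141026 to 21150679), its inhibitor, was at 77.2, 86.9 and 56.7 CPM in control and 93.6, 99.4 and 95.1 CPM in *Gp130* ecKO uteri. The *Gp130* ecKO uteri were all higher by a small margin (log2 fold change 0.38, SE 0.19, adjusted p = 0.248), and 17.2% of the 75-base stretches of *Keap1* lay on the opposite strand of other genes. NRF2 activity is set mainly through protein stability, which RNA does not measure.

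The 4 genes filed as NRF2 target enzymes were split, with a median of −0.12. Other NRF2 targets, such as *Gclm*, were counted under other roles, so this median depends on the filing. *Hmox1* (ENSMUSG00000005413, chromosome 8 from 75820241 to 75827217), heme oxygenase 1, which releases iron, biliverdin and carbon monoxide from heme, was at 39.8, 18.6 and 41.5 CPM in control and 9.63, 13.7 and 12.3 CPM in *Gp130* ecKO uteri. It was lower in all *Gp130* ecKO uteri, with control 2 the nearest control (log2 fold change −1.49, SE 0.34, adjusted p = 0.0821). *Hmox1* passed an FDR of 0.05 with the exact test, the likelihood ratio test and DESeq2 and also without control 2. Macrophages, which make much heme oxygenase, had overlapping marker sums, and their part was not tested.

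*Srxn1* (chromosome 2 from 151947436 to 151957687), sulfiredoxin, which repairs overoxidised peroxiredoxins, was at 25.5, 40.2 and 48.7 CPM in control and 54.8, 56.9 and 72.8 CPM in *Gp130* ecKO uteri. Its *Gp130* ecKO values were above all control values (log2 fold change 0.69, SE 0.26, adjusted p = 0.163). *Nqo1*, the quinone reductase often read as the marker of NRF2 activity, was at 8.90, 9.83 and 3.40 CPM in control and 4.11, 4.81 and 7.09 CPM in *Gp130* ecKO uteri. Control 3 was the lowest and control 2 the highest of the 6 uteri (log2 fold change −0.48, SE 0.44, adjusted p = 0.517). *Txnrd1*, cytosolic thioredoxin reductase, was at 133, 172 and 170.4 CPM in control and 186, 213 and 159.6 CPM in *Gp130* ecKO uteri (log2 fold change 0.23, adjusted p = 0.451). *Hmox1* and *Srxn1* were separate in opposite directions, beside 31.3% of all genes tested with separate groups, and *Nqo1* and *Txnrd1* overlapped.

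Thioredoxin and the peroxiredoxins overlapped between the groups. *Txn1* was at 143 to 241 CPM in control and 136 to 184 CPM in *Gp130* ecKO uteri, *Prdx1* at 539 to 733 against 474 to 730.7 CPM, and *Prdx6* at 139 to 258 against 144 to 188 CPM. Their log2 fold changes were −0.27, −0.03 and −0.24, and all 3 had their highest value in control 1.

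Among catalase and the superoxide dismutases only catalase had separate groups (25%, beside 31.3% of all genes tested). *Cat* (chromosome 2 from 103284194 to 103316185), which breaks down hydrogen peroxide in peroxisomes, was at 41.5, 62.8 and 26.6 CPM in control and 87.2, 88.8 and 81.3 CPM in *Gp130* ecKO uteri. The *Gp130* ecKO uteri were close together and above all controls (log2 fold change 0.97, SE 0.29, adjusted p = 0.117), and *Cat* passed an FDR of 0.05 with the exact test, the likelihood ratio test, DESeq2 and without control 2. *Sod1*, the cytosolic enzyme, was at 208 to 336 CPM in control and 254 to 333 CPM in *Gp130* ecKO uteri, and *Sod2*, the mitochondrial enzyme, at 76.0 to 123 and 92.8 to 107 CPM. *Sod3*, the extracellular enzyme, was at 5.91, 6.52 and 1.53 CPM in control and 2.44, 3.11 and 3.69 CPM in *Gp130* ecKO uteri (log2 fold change −0.62, adjusted p = 0.482). In *Sod1*, 44.3% of the 75-base stretches lay on the opposite strand of *Scaf4*.

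Of the ferroptosis genes that act on lipids, *Acsl4*, which loads polyunsaturated fatty acids into membranes, was at 837, 272 and 316 CPM in control and 597, 690.9 and 490.1 CPM in *Gp130* ecKO uteri. Control 1 was the highest of the 6 uteri, and the groups overlapped (log2 fold change 0.32, SE 0.43, adjusted p = 0.666, and 1.04, 0.067 and 0.094 without controls 1, 2 and 3). *Aifm2*, also known as FSP1, which keeps coenzyme Q reduced, was at 5.62 to 8.68 CPM in control and 3.89 to 7.38 CPM in *Gp130* ecKO uteri (log2 fold change −0.13, adjusted p = 0.837).

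To see whether neighbouring pathways moved, 8 wider lists of 125 genes were read from the same fit. Of these, 123 were mapped to 1 identifier and 113 were tested. None was called by the quasi-likelihood test, although *Alox15* was called with no filter on low counts, where 0.351% of all genes were called. An unadjusted p under 0.05 was found for 42 (37.2%, 20 higher and 22 lower), beside 25% of all genes tested. The exact test, the likelihood ratio test and DESeq2 called 15, 16 and 19 of them, beside 7.54%, 7.93% and 9.31% of all genes tested. The quasi-likelihood test called 14 without control 2, beside 5.23% of all genes, and 7 without control 2 and *Gp130* ecKO 1, beside 2.03%. Their groups did not overlap in 44 (38.9%, 22 higher and 22 lower), beside 31.3% of all genes tested. These shares describe lists chosen with earlier results known, and nothing is read from them.

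**Figure D4:**
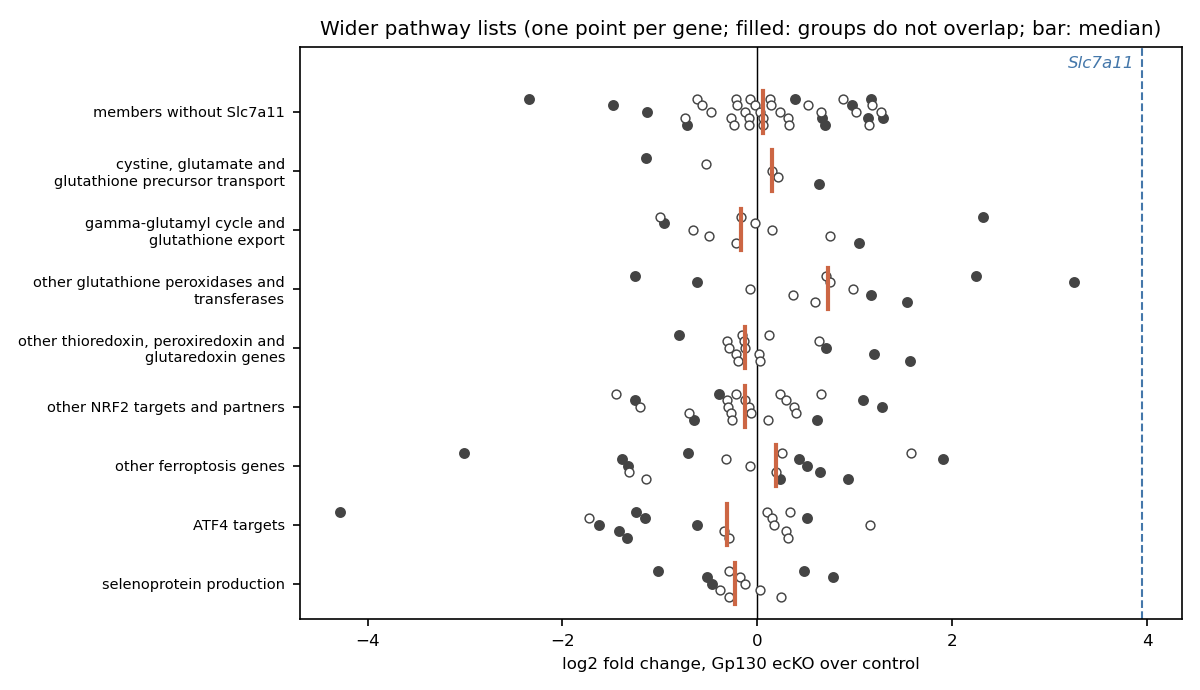
Log2 fold change (*Gp130* ecKO over control) of every tested gene of 8 wider lists and of the 39 members other than *Slc7a11*, with the median of each list as a bar and filled points where the groups do not overlap. In the reported fit no gene reaches the dashed line of *Slc7a11* at 3.95, and the lists span 0.

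The list of ATF4 and its targets, the other program that *Slc7a11* is known to belong to, had 10 of 18 fitted changes below 0. The 8 above 0 were 44.4% of the list, beside 47.1% of all genes tested. Of the 18, 7 were lower and 1 was higher at an unadjusted p under 0.05, beside 12.9% lower and 12.1% higher of all genes tested. The median log2 fold change was −0.31. These values depend on how genes were filed, since *Slc7a11* itself, *Chac1* and other amino acid genes were counted in other lists. Among those filed elsewhere, log2 fold changes were −0.74 for *Chac1*, −1.15 for *Slc1a4*, 0.65 for *Cth*, 0.21 for *Slc3a2* and 0.63 for *Slc7a5*. *Atf4* itself was at 211, 117 and 273 CPM in control and 76.7, 96.4 and 96.2 CPM in *Gp130* ecKO uteri. All *Gp130* ecKO uteri were below the controls (log2 fold change −1.16, SE 0.30, adjusted p = 0.0964). The RNA of *Atf4* does not measure ATF4 protein or its activity. *Nupr1*, a stress-induced chromatin protein, was at 91.5, 5.71 and 93.4 CPM in control and 4.11, 1.69 and 3.98 CPM in *Gp130* ecKO uteri. Control 2 was far from the other controls and near the *Gp130* ecKO uteri (log2 fold change −4.28, SE 0.97, adjusted p = 0.0821). *Eif4ebp1*, a brake on translation, was at 43.6, 23.1 and 43.5 CPM in control and 11.1, 15.1 and 17.4 CPM in *Gp130* ecKO uteri, and was lower in all of the latter (log2 fold change −1.34, adjusted p = 0.0833). *Phgdh*, the first enzyme of serine synthesis, was at 47.9, 37.0 and 71.7 CPM in control and 16.0, 26.6 and 23.3 CPM in *Gp130* ecKO uteri, also without overlap (log2 fold change −1.25, adjusted p = 0.0897). *Atf4*, *Nupr1*, *Eif4ebp1* and *Phgdh* each passed an FDR of 0.05 with the exact test, the likelihood ratio test and DESeq2.

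Among the transport genes, *Slc1a4*, a carrier of alanine, serine and cysteine, was at 43.3, 54.9 and 43.2 CPM in control and 17.9, 26.3 and 19.6 CPM in *Gp130* ecKO uteri. It was lower in every *Gp130* ecKO uterus (log2 fold change −1.15, SE 0.22, adjusted p = 0.0672), the reverse of *Slc7a11*. In the gamma-glutamyl cycle, *Lap3*, a leucine aminopeptidase that can split cysteinylglycine, was at 207, 182 and 143 CPM in control and 87.4, 81.9 and 104 CPM in *Gp130* ecKO uteri. Its groups were apart (log2 fold change −0.96, SE 0.19, adjusted p = 0.0683).

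The other ferroptosis genes went both ways, with 5 higher and 4 lower of 17 (52.9%) at an unadjusted p under 0.05, beside 25% of all genes tested. *Alox15*, a lipoxygenase that oxidises polyunsaturated fatty acids, was at 1955, 690.4 and 2789.6 CPM in control and 283, 218 and 173 CPM in *Gp130* ecKO uteri. Even control 2 was well above the *Gp130* ecKO uteri (log2 fold change −3.01, SE 0.52, adjusted p = 0.0633). *Trf*, the iron carrier transferrin, was at 57.5, 41.7 and 48.7 CPM in control and 23.1, 23.2 and 12.6 CPM in *Gp130* ecKO uteri (log2 fold change −1.33, adjusted p = 0.0737), without overlap. *Slc40a1*, the iron exporter ferroportin, was at 14.9, 18.1 and 8.27 CPM in control and 25.5, 55.4 and 74.5 CPM in *Gp130* ecKO uteri (log2 fold change 1.91, adjusted p = 0.0848), without overlap. *Gch1*, the first enzyme of tetrahydrobiopterin synthesis, was at 8.78, 5.09 and 10.3 CPM in control and 2.94, 3.42 and 2.82 CPM in *Gp130* ecKO uteri (log2 fold change −1.39, adjusted p = 0.0941). *Slc1a4*, *Alox15*, *Trf*, *Slc40a1* and *Gch1* were called with the exact test, the likelihood ratio test and DESeq2. *Trf* was thus lower and *Slc40a1* higher in every *Gp130* ecKO uterus, and red blood cell marker sums overlapped. Both were named for their small p, and other genes of this list, such as *Tfrc*, *Ncoa4* and *Slc39a14*, are not shown. DESeq2 also called *Slc39a14*, as higher. Nothing is read about iron handling.

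Other NRF2 targets and partners had a median of −0.12, with 3 of 23 higher and 2 lower (21.7%) at an unadjusted p under 0.05, beside 25% of all genes tested (12.1% higher and 12.9% lower). *Akr1b8*, an aldo-keto reductase, was at 23.0, 20.0 and 23.1 CPM in control and 5.52, 12.5 and 9.62 CPM in *Gp130* ecKO uteri. It was lower in every *Gp130* ecKO uterus (log2 fold change −1.25, adjusted p = 0.0938). *Akr1b8* was called with the exact test, the likelihood ratio test and DESeq2. The other glutathione peroxidases and transferases had a median of 0.72, with 9 of 12 fitted changes above 0, beside 47.1% of all genes tested, and 4 higher and 2 lower (50%) at an unadjusted p under 0.05. Among them *Gsta2*, an alpha class transferase named after its values were seen, had the highest fitted change of the wider lists. It was at 0.445, 9.60 and 0.733 CPM in control and 18.1, 41.5 and 45.6 CPM in *Gp130* ecKO uteri. All *Gp130* ecKO uteri were above the controls, of which control 2 was far above the others (log2 fold change 3.25, SE 1.03, adjusted p = 0.124). *Gsta2* was called with the exact test, with the likelihood ratio test and without control 2, where the change was 5.98, and not with DESeq2 (adjusted p = 0.0591). It shared 20.4% of its 75-base stretches with relatives such as *Gsta1*. Thioredoxin, peroxiredoxin and glutaredoxin genes outside the members had by the same measure 4 of 15 higher and 1 lower (33.3%), and selenoprotein production had 1 of 12 higher and 3 lower (33.3%). The gamma-glutamyl cycle had 1 of 11 higher and 2 lower (27.3%), and transport had 1 of 5 higher and 1 lower (40%), all to be set beside the same 25% of all genes tested.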

How the data were processed

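For each uterus the authors deposited RSEM estimates of 56748 genes, in the form of expected counts, TPM and FPKM. Per the labels and the study's methods, reads were trimmed with fastp 0.23.2, cleared of ribosomal RNA, mapped to GRCm39 with STAR 2.7.10a and counted with RSEM 1.3.3, which shares reads among the genes they map to. The annotation version and the use of strand in counting are not given in the sources used here, and the library kit is strand-specific. The deposited TPM, which the authors scaled for length and depth, was used only to set levels of different genes side by side, and the deposited FPKM was not used for any value.

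After rounding of the expected counts, groups were compared with edgeR 4.0.16 under R 4.3.3 (filterByExpr, TMM, glmQLFit, glmQLFTest), and p-values were adjusted by Benjamini-Hochberg over all 16605 genes kept. A gene was called at an FDR under 0.05 and more than 2-fold. Standard errors were derived as the log2 fold change over the root of the F statistic. Adjusted p-values without a named tool are from this test. The study names edgeR but not which of its tests was used. Symbols came from GENCODE M39. Alternatives were the exact and the likelihood ratio test of edgeR, DESeq2 1.42.0, other scalings and filters, unrounded counts, a block for replicate number and leaving out each uterus. The analysis was tested on simulated data. Shared sequence was counted over every stretch of 75 bases, the read length, of the annotated transcripts.

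The members and lists were chosen with earlier results of these data known. Genes named with the value of every uterus are *Slc7a11*, *Slc3a2*, *Il6st*, members with an unadjusted p under 0.05 or groups that do not overlap, and the 10 genes of the wider lists with the smallest p whose groups were separate and whose mean CPM was at least 1. Values of other members, of *Atf4*, of *Gsta2* and of *Slc7a5* were added for completeness. *Ddit3* and *Dpep2* matched 2 identifiers each and were given no value. No batch or date is given in the labels, and the libraries of a group differed from each other by far more than counting noise.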

Additional observations from a re-analysis of the deposited data

How the results depend on the processing

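*Slc7a11* was higher in the *Gp130* ecKO uteri under every alternative run, with log2 fold changes of 3.43 to 4.37 with each uterus left out and 4.64 with control 2 and *Gp130* ecKO 1 left out together, a choice made after seeing the data. The change of *Gsta2* was above that of *Slc7a11* with a block for replicate number (4.12 beside 3.87) and without control 2 (5.98 beside 4.37). It was also above with both of these uteri left out (6.28 beside 4.64), and below in the other fits. The number of genes called depended on the test: 7 with the legacy form of the quasi-likelihood test, 1252 with the exact test, 1317 with the likelihood ratio test, 1546 with DESeq2, 105 with no filter on low counts, and 1 to 897 with each uterus left out, the 897 without control 2, and 343 in the fit with both uteri left out. Members called, *Slc7a11* included, numbered 0 with the legacy form, 6 with the exact test, 6 with the likelihood ratio test and 8 with DESeq2. They numbered 0 with upper quartile factors, 0 to 6 with each uterus left out (6 without control 2), and 2 with both left out. These counts include the test of *Slc7a11*, which is not read. Without *Slc7a11* the exact test, the likelihood ratio test and DESeq2 called 5, 5 and 7, beside 7.54%, 7.93% and 9.31% of all genes tested. Without it the count was 5 with control 2 left out, beside 5.23% of all genes, and 1 with both uteri left out, beside 2.03%. That fit gave 21 of 40 members without overlap (52.5%, beside 51% of all genes in the same fit) and a median of 0.32 for the members other than *Slc7a11*, which lay at −0.13 to 0.23 with each uterus left out. The targeted gene passed an FDR of 0.05 with DESeq2 only (−0.67). Uteri with the same replicate number did not deviate together (correlations 0.10, 0.07 and −0.20), control 1 and control 3 correlated best with another number, and a fit with the replicate number as a block called 6 genes and 0 members.

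Several members without a call changed sign, most of them near 0 (*Chac1*, at −0.74, was not). With each uterus left out, log2 fold changes crossed 0 within −0.20 to 0.33 for *Gclm*, −0.043 to 0.28 for *Gss*, −0.24 to 0.23 for *Gsr*, −1.13 to 0.39 for *Chac1* (0.39 without control 1), −0.30 to 0.11 for *Gpx1*, −0.16 to 0.021 for *Gstp1*, −0.22 to 0.37 for *Mgst3*, −0.42 to 0.00097 for *Txn1*, −0.17 to 0.16 for *Prdx1*, −0.42 to 0.080 for *Prdx6*, −0.13 to 0.21 for *Sod1*, −0.14 to 0.24 for *Sod2* and −0.28 to 0.14 for *Aifm2*. Upper quartile factors gave −0.0027 for *Gclm*, −0.0048 for *Sod1* and −0.040 for *Sod2*, which was at −0.020 with no factors, and *Prdx1* was at 0.0041 with no filter. Leaving out control 2 and *Gp130* ecKO 1 together gave −0.095 for *Gss*, 0.32 for *Gsr*, 0.018 for *Gstp1* and 0.37 for *Aifm2*. The causes were not tested. Over 39 members, 610 of 662 planned comparisons kept direction and side of the FDR threshold, 26 passed it where the reported test had not and 26 reversed. With 13960748 counts, control 3 was the shallowest library.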
